A study of Mus musculus with 4 samples.

Results

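The genes described here make, destroy or read cyclic AMP (cAMP) in mouse pancreatic islets, the hormone-secreting cell clusters of the pancreas. They are 34 genes chosen by name: 9 membrane adenylyl cyclases, 16 phosphodiesterases, 6 subunits of protein kinase A (PKA), the 2 Epac genes and Creb1. All 34 symbols were found among the 52636 gene rows of the count table, and all 34 were among the 16924 genes with enough counts to be tested. RNA sequencing compared whole islets of 2 groups, wild-type mice as controls and Tspan7 knockout mice of genotype Tspan7 y/-, a notation for males without a working copy of this X-linked tetraspanin gene. Each group had 2 libraries. The sample labels say knockout, whereas the text on the series says knockdown, and age, strain and whether the libraries came from separate animals are not given in the labels. The question named by the study's title concerns exocytosis and its calcium sensitivity in beta cells without tetraspanin-7.

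Cyclic AMP is made from ATP by adenylyl cyclases, which stimulatory G proteins switch on when a hormone such as GLP-1 binds its receptor. Phosphodiesterases break it down. In beta cells cAMP does not start insulin secretion by itself but amplifies the secretion that calcium entry triggers, through PKA, which phosphorylates proteins of the exocytotic machinery, and through Epac2, which activates the small GTPase Rap1 and binds components of the granule docking complex. PKA also phosphorylates CREB, a transcription factor that binds a palindromic DNA element, the cAMP response element (CRE), near its target genes.

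That element is shown in 3 promoters because these were the genes, among those described here and a list of 12 genes known to be induced by cAMP, whose RefSeq promoter window held the full 8-base motif. Each sequence runs 5′ to 3′ on the strand of its gene, and capitals mark the motif TGACGTCA.
Prkar1a: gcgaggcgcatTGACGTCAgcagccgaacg
Sst: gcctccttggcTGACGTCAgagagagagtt
Dusp1: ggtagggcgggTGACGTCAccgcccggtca
The Prkar1a stretch lies at chr11:109650889-109650918 on the plus strand of GRCm38.p6, with the motif 49 bases before an annotated transcription start and 38 bases after another. The Sst stretch lies at chr16:23890874-23890903 on the minus strand, with the motif 48 bases before the start. The Dusp1 stretch lies at chr17:26508597-26508626 on the minus strand, with the motif 143 bases before the start.

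Promoter windows of 300 bases were held for 29 of the 34 genes. The palindrome, searched on both strands, was found in 1 of these 29 genes (3.45%), Prkar1a, and in 2.03% of the 27025 genes with a window. The shorter motif TGACG, or its complement CGTCA, which lies within the palindrome, was found in 14 of the 29 genes (48.3%) against 23.0% of all genes with a window. Of the cAMP-induced list, 9 of 12 genes had a window. The palindrome was present in 2 of them (22.2%) and the shorter motif in 8 (88.9%). Genes with several annotated starts had several windows: counted by window, the shorter motif was in 24.2% of the 66 windows of the 29 genes and in 20.8% of all windows.

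Library totals ran from 7855665 to 9377220 counts, and 3 counts, used as a detection floor, corresponded to 0.312 to 0.398 CPM (counts scaled for the size of each library). Tspan7 had 1924 and 1795 counts in the controls and 3 and 2 counts in the knockout libraries, so the targeted gene followed the labels in all 4 libraries. With edgeR's quasi-likelihood test and Benjamini-Hochberg adjustment over all genes, Tspan7 was the only gene called (adjusted p = 3.51e-06). The share of genes called lower was therefore 0.00591%, as was the share called in either direction, and the share called higher was 0%. Before adjustment, 263 genes (1.55%) were higher and 331 (1.96%) lower with p under 0.05, or 3.51% in all. DESeq2 called 0 genes higher and 6 lower. The islet hormone genes were abundant in every library, with Ins2 between 5305 and 7089 CPM and Gcg between 5840 and 6925 CPM. The ranges of Ins2 and Gcg overlapped, and per kilobase of exon they averaged 4652 and 4467 CPM. The 10 most abundant genes held 7.73 to 9.18% of the counts of a library. Whether the processing held down the most abundant genes, and so levels compared between genes, was not tested.

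None of the 34 cAMP genes was called higher or lower in knockout islets (smallest adjusted p = 0.9997 with edgeR's quasi-likelihood test). Only Pde8b (2.94%, against 3.51% of all genes) had an unadjusted p under 0.05, and with DESeq2 or limma-voom 0 of the 34 did. The log2 fold change of knockout against control was above 0 in 16 of the 34 (47.1%), against 50.6% of all genes. Its median was -0.04, beside 0.0034 over all genes, and it ranged from -0.78 for Pde8b to 0.63 for Pde4a. Knockout and control libraries did not overlap in 6 genes. Pde4a and Pde8a were higher in both knockout libraries (5.88%, against 15.3% of all genes), and Adcy8, Pde1b, Pde8b and Prkar2a were lower (11.8%, against 15.0%). Together they made 17.6% of the 34 genes, beside 30.3% of all genes. With 2 libraries a group, an exact permutation test of a single gene cannot give a two-sided p below 0.333.

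**Figure D1:**
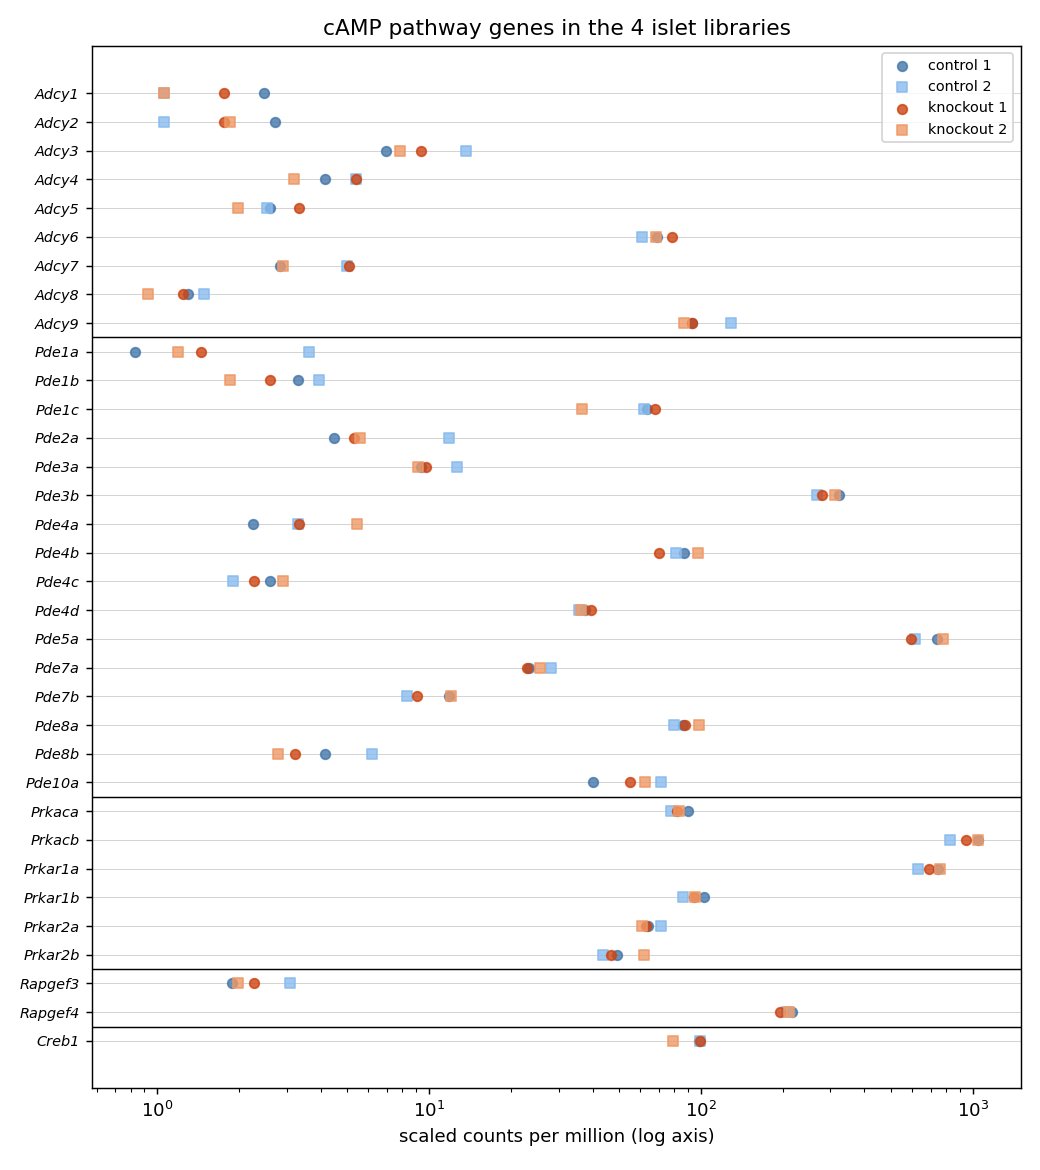
Level of each of the 34 genes in CPM (log axis), with a symbol for each of the 2 control and 2 knockout libraries. The levels run from 0.828 CPM for Pde1a to 1049 CPM for Prkacb, and for most genes the knockout symbols fall among or beside the control symbols.

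The precision behind this varied with the level. The 16 genes at 50 CPM or more had standard errors of 0.13 to 0.27 on the log2 scale, fold changes between -0.31 and 0.23, and a 95% confidence interval inside -1 to 1 in all 16, so that a change of 2-fold lay outside the interval of each. Of the 12 genes under 5 CPM, whose standard errors ran from 0.33 to 0.66, only 3 had such an interval, namely Adcy4, Adcy5 and Adcy7. In all, 23 of the 34 genes (67.6%) had an interval inside these limits, against 71.3% of all genes. For the other 11 the interval reached past a 2-fold change in at least 1 direction. Adcy3 and Pde2a, both at 5 to 50 CPM, were among these, and their control libraries lay 0.95 and 1.36 apart on the log2 scale. The 2 control libraries lay further apart than the group means in 25 of the 34 (73.5%), against 64.3% of all genes. Control replicate 2 held the highest value of the 4 libraries in 14 of the 34 genes (41.2%), and in 4742 of the 16924 genes tested. It held the lowest in 12 (35.3%, against 28.5% of all genes).

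**Figure D2:**
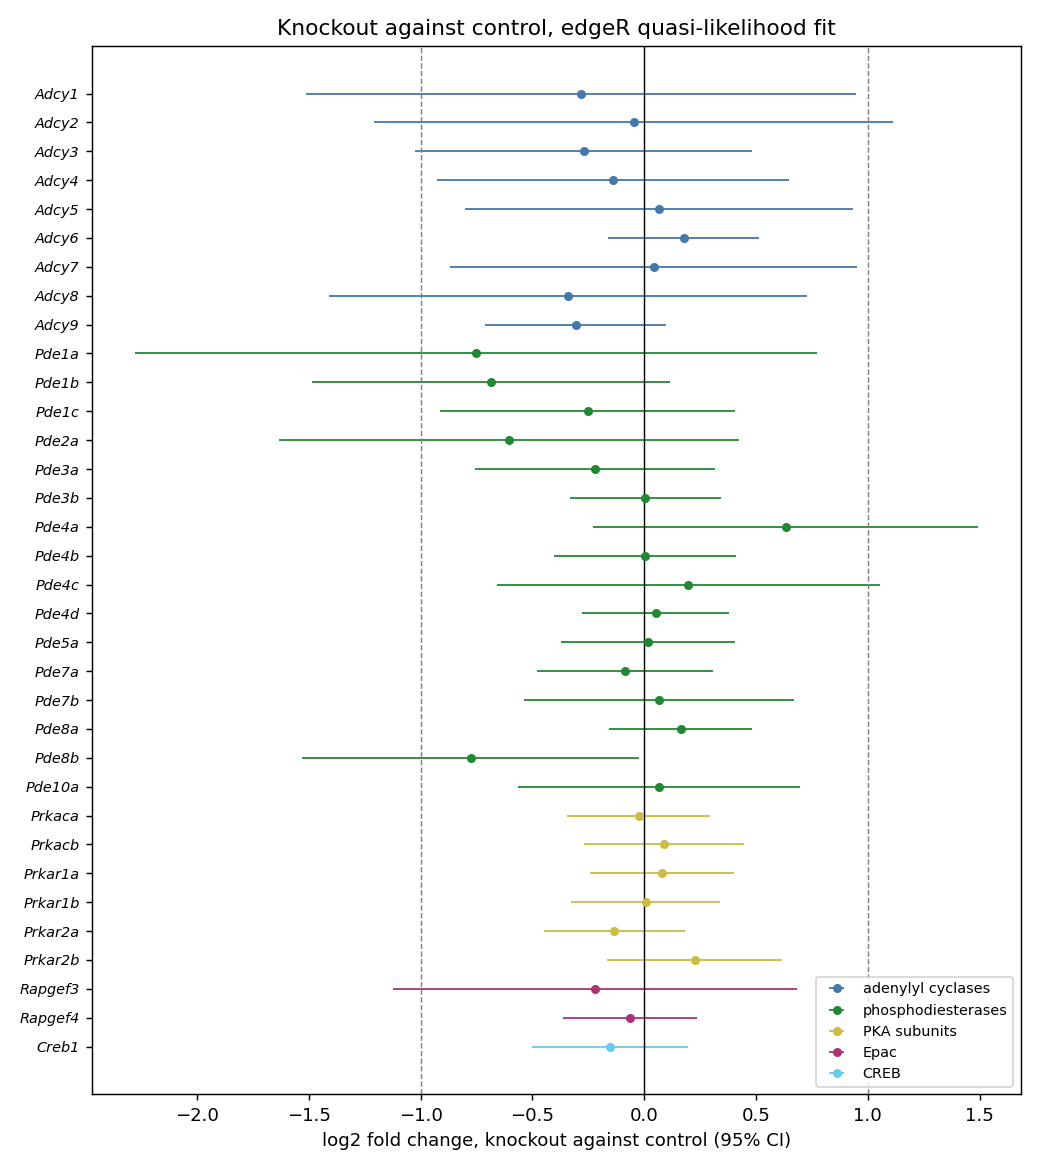
Log2 fold change of knockout against control for each of the 34 genes, with 95% confidence intervals from edgeR's quasi-likelihood fit; dashed lines mark a change of 2-fold in each direction. The intervals narrow from low to abundant genes, and Pde8b (-1.53 to -0.02) is the only gene whose interval does not hold 0.

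Among the adenylyl cyclases, which make cAMP, the islets held mainly Adcy9 and Adcy6. Adcy9, a cyclase known for its weak response to forskolin, averaged 19.4 CPM per kilobase of exon (range over the 4 libraries 16.7 to 24.9). Adcy6, which is inhibited by calcium, averaged 10.2 CPM per kilobase (8.99 to 11.6). These ranges did not overlap. Adcy9 made 57.1% and Adcy6 30.7% of the summed cyclase level per kilobase, and Adcy3, at 1.52 CPM per kilobase, made 4.43%. The calcium- and calmodulin-stimulated cyclases Adcy8 and Adcy1 were the lowest, at 0.152 and 0.127 CPM per kilobase, with overlapping ranges. Adcy4, Adcy7, Adcy2 and Adcy5 followed Adcy3 in falling order, from 0.971 to 0.364 CPM per kilobase, and from Adcy3 to Adcy5 each overlapped the next, whereas Adcy5 and Adcy8 did not overlap.

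Adcy9 measured 93.0 and 130 CPM in the controls and 93.2 and 86.8 CPM in the knockout libraries. Control replicate 2 stood above the other libraries, which lay close together. The log2 fold change was -0.31 ± 0.18 (SE; adjusted p = 0.9997, edgeR), and without control replicate 2 it was -0.05. Adcy6 measured 69.1 and 61.0 CPM in the controls and 78.6 and 68.4 CPM in the knockout libraries. The groups overlapped, and the fold change of 0.18 ± 0.15 (log2) had a 95% interval of -0.16 to 0.51. Adcy3, which is stimulated by calmodulin in vitro, measured 6.98 and 13.7 CPM in the controls and 9.35 and 7.82 CPM in the knockout libraries. Control replicate 2 was again the highest, both knockout libraries lay between the controls, and the log2 fold change of -0.27 became 0.30 without control replicate 2. Adcy3 shares 1380 bases of exon with Cenpo on the opposite strand, and Cenpo had 51 and 99 counts in the controls and 69 and 59 in the knockout libraries. Whether counting used the strand, and how reads over both genes were assigned, is not given in the sources used here. The counts of both genes may therefore be affected. Adcy3 is 1 of 9 of the 34 genes that overlap an exon on the opposite strand only. Also among the 9 are Adcy6 (with Gm29331, 60 to 91 counts), Pde5a (with 4930447N08Rik, 271 to 285 counts) and Rapgef4 (with Rapgef4os2, 243 to 292 counts). In Pde2a and Prkar1b the overlapping exon is on the same strand, for Prkar1b with Gm15672 (9 to 30 counts). The other 6 cyclases had fold changes from -0.34 to 0.06 on the log2 scale. Of these, Adcy8 did not overlap between the groups, with 11 and 14 counts in the controls and 12 and 7 counts in the knockout libraries, which are 1.30 and 1.49 CPM against 1.25 and 0.928 CPM. These differences amount to a few reads. The summed cyclase level was 35.4 ± 4.96 CPM per kilobase in controls and 32.1 ± 2.85 in knockout libraries (SD, n = 2 each), with overlapping values.

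**Figure D3:**
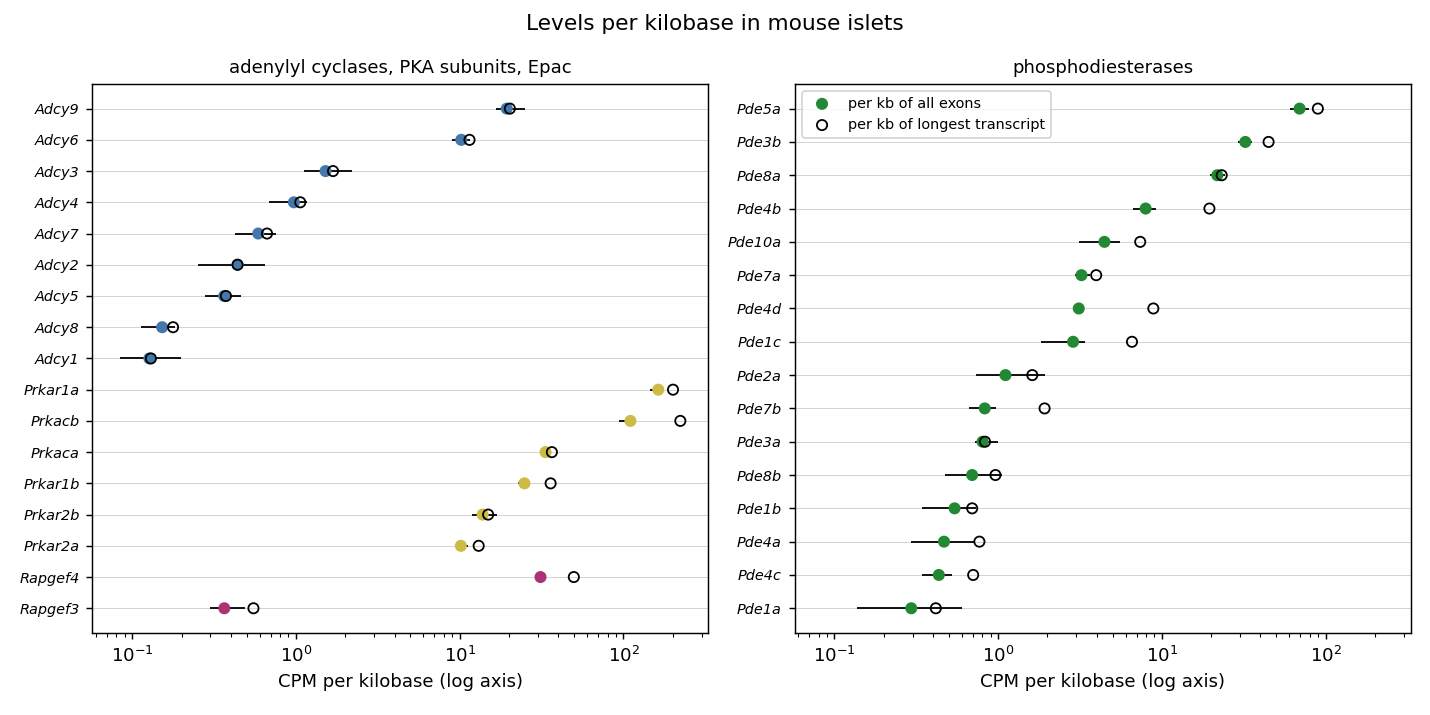
Mean level over the 4 libraries in CPM per kilobase (log axis), by role. Filled symbols use all exon bases of the gene, with bars from the lowest to the highest library, and open symbols use the longest transcript; Pde5a, Prkar1a, Rapgef4 and Adcy9 lead their classes with all exons, and Creb1 is not drawn.

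Among the phosphodiesterases, which destroy cyclic nucleotides, Pde5a had the highest level, 69.3 CPM per kilobase (60.4 to 79.0), or 46.0% of the summed level of the 16 genes. Its enzyme is specific for cyclic GMP. The leading enzymes that act on cAMP were Pde3b at 32.3 CPM per kilobase (29.3 to 35.3), Pde8a at 21.8 (19.8 to 24.4) and Pde4b at 7.95 (6.67 to 9.26). None of these 4 ranges overlapped. Pde10a followed at 4.46 CPM per kilobase, and from there down to Pde1a at 0.295 each gene overlapped the next one down. Pde2a, at 1.11 CPM per kilobase, shares 3955 of its 6149 exon bases with another gene on the same strand. Its place in this order is therefore uncertain. With the longest transcript as the length, Pde8a and Pde4b came to 23.2 and 19.5 CPM per kilobase with overlapping ranges, so the gap between them depended on the length used. With that length Pde4d, at 8.87 CPM per kilobase, also came above Pde10a, at 7.37. Without Pde5a, the summed level of the class was 80.3 ± 2.25 CPM per kilobase in controls and 81.5 ± 5.97 in knockout libraries (SD, n = 2 each), and the groups overlapped.

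Pde8b, a high-affinity cAMP phosphodiesterase that does not respond to the general inhibitor IBMX, had the smallest unadjusted p of the 34 genes. It measured 4.14 and 6.16 CPM in the controls and 3.22 and 2.78 CPM in the knockout libraries, from 35, 58, 31 and 21 counts. Both knockout libraries were below both controls, against a control mean of 5.15 ± 1.43 CPM (SD, n = 2). The log2 fold change was -0.78 ± 0.33 (unadjusted p = 0.0447, adjusted p = 0.9997, edgeR), and it ran from -1.03 without control replicate 1 to -0.46 without control replicate 2. Pde8b shares 447 bases of exon with Gm48420 on the opposite strand, which had between 7 and 25 counts. Its paralog Pde8a, also a high-affinity cAMP phosphodiesterase, measured 86.4 and 79.9 CPM in the controls and 87.6 and 98.8 CPM in the knockout libraries. Both knockout libraries were above both controls, and the fold change was 0.16 ± 0.14 (log2; 95% interval -0.16 to 0.48).

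The calmodulin-stimulated PDE1 enzymes act on both cyclic nucleotides. Pde1b measured 3.31 and 3.93 CPM in the controls and 2.60 and 1.86 CPM in the knockout libraries. It was lower in both knockout libraries, with a log2 fold change of -0.69 ± 0.35 (unadjusted p = 0.0834, adjusted p = 0.9997, edgeR) from 14 to 37 counts. Pde1c, the most abundant of the 3 per kilobase of exon, measured 63.7 and 61.7 CPM in the controls and 68.1 and 36.7 CPM in the knockout libraries. The knockout libraries lay on either side of the controls, and the log2 fold change of -0.25 ± 0.27 became 0.12 without knockout replicate 2. Pde1a had 7 and 34 counts in the controls and 14 and 9 counts in the knockout libraries, so the control libraries held both its lowest and its highest value.

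Pde2a, whose enzyme is stimulated by cyclic GMP, measured 4.50 and 11.9 CPM in the controls and 5.30 and 5.57 CPM in the knockout libraries. Control replicate 2 stood alone, and the log2 fold change was -0.60 ± 0.44 with all libraries and 0.27 without that library. Pde2a shares 3955 bases of exon with Gm45837 on the same strand, which had 66 and 137 counts in the controls and 73 and 74 counts in the knockout libraries; how reads of such overlaps were assigned is not given in the sources used here. Pde10a, whose enzyme acts on both cyclic nucleotides, measured 40.1 and 71.7 CPM in the controls and 54.8 and 62.4 CPM in the knockout libraries. Both knockout values lay between the controls, and the fold change was 0.07 ± 0.26 (log2).

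The cAMP phosphodiesterases PDE3B and PDE4 are the targets of cilostamide and rolipram. Pde3b, known in beta cells as a brake on cAMP-amplified insulin secretion, measured 321 and 267 CPM in the controls and 279 and 312 CPM in the knockout libraries. The fold change was 0.01 ± 0.15 on the log2 scale, with a 95% interval of -0.33 to 0.34. Pde4b measured 86.5 and 81.2 CPM in the controls and 70.4 and 97.8 CPM in the knockout libraries. The controls lay between the knockout values, and the fold change of 0.0034 ± 0.18 took either sign under other settings. Pde4a was the gene with the largest fold change upward, 0.63 ± 0.37 (log2; unadjusted p = 0.129, adjusted p = 0.9997, edgeR). It measured 2.25 and 3.29 CPM in the controls and 3.32 and 5.43 CPM in the knockout libraries, from 19, 31, 32 and 41 counts, and the higher control nearly met the lower knockout value. Pde7a, a cAMP-specific enzyme insensitive to rolipram, measured 23.4 and 28.1 CPM in the controls and 23.0 and 25.6 CPM in the knockout libraries, which overlapped. Pde5a measured 739 and 616 CPM in the controls and 594 and 777 CPM in the knockout libraries, again with overlap (log2 fold change 0.02 ± 0.17). The remaining genes, Pde3a, Pde4c, Pde4d and Pde7b, had log2 fold changes between -0.22 and 0.20.

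**Figure D4:**
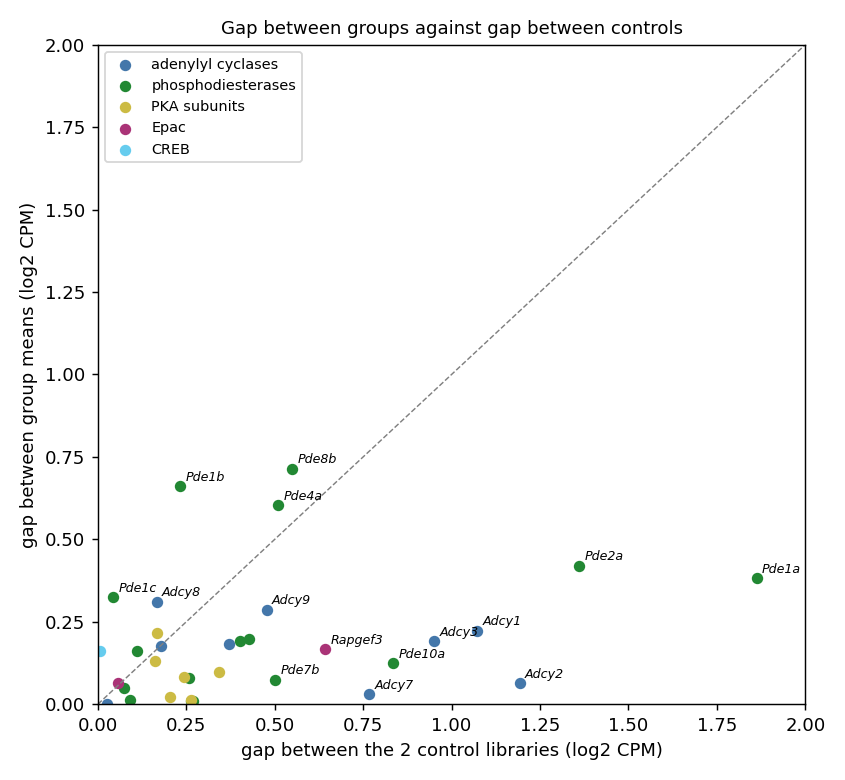
For each of the 34 genes, the log2 gap between the group means (vertical axis) against the log2 gap between the 2 control libraries (horizontal axis), with a dashed line where they are equal. In 25 genes the point lies below the line; Pde1a and Pde2a have the widest gaps between controls, 1.86 and 1.36.

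PKA is a tetramer of regulatory subunits that hold catalytic subunits inactive until cAMP binds. Per kilobase of exon, the type I regulatory subunit gene Prkar1a was highest at 163 CPM (145 to 175), followed by the catalytic subunit genes Prkacb at 110 (94.2 to 120) and Prkaca at 33.4 (31.4 to 36.1). Prkar1b, Prkar2b and Prkar2a followed at 24.8, 13.8 and 10.2 CPM per kilobase, and no neighbours in this order overlapped. With the longest transcript as the length, Prkacb came to 222 CPM per kilobase (190 to 241) and Prkar1a to 201 (179 to 215), so the order of the first pair turned and their ranges overlapped. The ratio of summed regulatory to summed catalytic level was 1.43 and 1.52 in the controls and 1.48 and 1.48 in the knockout libraries, the knockout values lying between the controls. That ratio also moved with the length used, to between 0.991 and 1.06. The ratio of Prkar1a alone to Prkar2a alone was 17.1 and 12.9 in the controls and 16.2 and 18.4 in the knockout libraries, with overlap. It leaves out Prkar1b and Prkar2b, so it is not the ratio of all type I to all type II subunits.

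Each of the 6 PKA genes had a 95% interval inside -1 to 1 on the log2 scale, with fold changes from -0.13 to 0.23. Prkacb measured 1048 and 826 CPM in the controls and 945 and 1049 CPM in the knockout libraries. Prkar1a, the gene with the palindrome shown above, measured 743 and 628 CPM in the controls and 694 and 755 CPM in the knockout libraries. In both, control replicate 2 was the lowest and the groups overlapped, with log2 fold changes of 0.09 ± 0.16 and 0.08 ± 0.14. Prkar2b, the type II beta regulatory subunit, measured 49.1 and 43.7 CPM in the controls and 46.9 and 61.8 CPM in the knockout libraries. Only knockout replicate 2 stood above the controls, and the log2 fold change of 0.23 ± 0.17 was 0.02 without it. Prkar2a was lower in both knockout libraries by a small amount, 63.0 and 60.6 CPM against 64.0 and 71.6 CPM. Control replicate 2 was the lowest library in 5 of the 6 PKA genes (83.3%, against 28.5% of all genes), Prkar2a being the exception. The summed PKA level was 347 ± 43.5 CPM per kilobase in controls and 364 ± 21.7 in knockout libraries (SD, n = 2 each).

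The Epac proteins are exchange factors for Rap1 that cAMP activates directly. Rapgef4, which encodes Epac2, the form known in beta cells, stood at 31.1 CPM per kilobase of exon (29.4 to 32.4) against 0.365 (0.299 to 0.486) for Rapgef3, the gene of Epac1, and so made 98.8% of the summed Epac level. Rapgef4 measured 217 and 208 CPM in the controls and 197 and 210 CPM in the knockout libraries. The groups overlapped, and with a fold change of -0.06 ± 0.13 (log2; 95% interval -0.36 to 0.24) it was among the most tightly measured of the 34 genes. Creb1, the gene of CREB, stood at 6.85 CPM per kilobase of exon (5.76 to 7.23) and measured 98.9 and 99.4 CPM in the controls and 99.1 and 79.1 CPM in the knockout libraries. Knockout replicate 1 lay between the controls, only knockout replicate 2 was lower, and the log2 fold change of -0.15 ± 0.15 was -0.0015 without that library.

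Of other genes of the pathway, 51 on a list of 61 were tested. None was called with edgeR's quasi-likelihood test, and 1 (1.96%, against 3.51% of all genes) had an unadjusted p under 0.05. Fold changes were above 0 in 26 (51.0%, against 50.6% of all genes) and below in 25. Their median was 0.0026 on the log2 scale. Knockout and control libraries did not overlap in 31.37% of the 51, against 30.34% of all genes and 17.65% of the 34 cAMP genes. Akap12, which anchors PKA near membrane receptors, measured 91.9 and 84.6 CPM in the controls and 71.9 and 56.9 CPM in the knockout libraries. It was lower in both knockout libraries (log2 fold change -0.45 ± 0.16, unadjusted p = 0.0201 with edgeR), without passing the adjustment.

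Of the inputs to the cyclases, 7 G protein alpha subunit genes all had intervals inside a 2-fold change, as did 4 of 9 tested genes of Gs-coupled receptors and 2 of 6 of Gi-coupled receptors, and none was called. Gnas, the gene of the stimulatory G protein alpha subunit, measured 1005 and 865 CPM in the controls and 911 and 909 CPM in the knockout libraries. Both knockout values lay between the controls. Glp1r, the GLP-1 receptor gene, measured 253 and 229 CPM in the controls and 233 and 244 CPM in the knockout libraries, again between them, with a log2 fold change of -0.02 ± 0.13. Gipr, the gene of the receptor for the other incretin hormone, measured 26.3 and 24.2 CPM in the controls and 34.2 and 28.5 CPM in the knockout libraries. It was higher in both knockout libraries, but not past the threshold (log2 fold change 0.31 ± 0.16, unadjusted p = 0.0918 with edgeR). Gcgr, the glucagon receptor gene, overlapped between the groups at 11.1 to 14.0 CPM.

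Of the 12 genes on the list induced by cAMP through CREB, all were tested and none was called. The fold change was above 0 in 10 of them (83.3%, against 50.6% of all genes). The median was 0.39 on the log2 scale beside 0.0034 over all genes, but this rested on single libraries. Leaving out control replicate 2 gave a median of 0.0012, and leaving out knockout replicate 2 gave 0.0033. Control replicate 2 was the lowest library in 10 of the 12 (83.3%, against 28.5% of all genes). Knockout replicate 2 was the highest in 7 (58.3%, against 27.2%). Without overlap between the groups, 1 gene was higher in knockout (8.33%, against 15.3% of all genes) and 2 were lower (16.7%, against 15.0%). Fos, an immediate-early gene chosen after its values were seen, had 432 and 255 counts in the controls and 418 and 1768 counts in the knockout libraries. Knockout replicate 1 lay between the controls. Crem, which encodes CREB-related activators and repressors, measured 61.1 and 56.2 CPM in the controls and 48.1 and 48.5 CPM in the knockout libraries. It was lower in both knockout libraries (log2 fold change -0.28 ± 0.14, unadjusted p = 0.0728 with edgeR). Sik1, a kinase that restrains CREB coactivators, went the other way, with 24.6 and 23.1 CPM in the controls and 25.3 and 37.5 CPM in the knockout libraries. Vgf, a neuroendocrine granule protein gene, measured 40.5 and 59.3 CPM in the controls and 32.6 and 40.4 CPM in the knockout libraries. Its higher knockout value lay just under the lower control. Sst, the somatostatin gene with the palindrome shown above, measured 1091 and 768 CPM in the controls and 997 and 936 CPM in the knockout libraries, both between the controls.

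Other cell types varied over the libraries along with several of these genes. The summed level of 9 acinar markers was 2502 and 58.2 CPM in the controls and 1145 and 5334 CPM in the knockout libraries, with control replicate 2 the lowest and knockout replicate 2 the highest for all 9. The summed level of 6 ductal markers was highest in control replicate 2, at 354 CPM against 179 to 197 CPM in the others. The excess came mostly from Spp1, at 172 CPM against 19.1 to 48.1 CPM. Krt7 was also highest there, at 177 CPM against 137 to 154 CPM, and made most of the sum in the other libraries. Krt19 (0.663 to 1.77 CPM), Sox9 (1.17 to 1.66 CPM) and Muc1 (2.08 to 3.84 CPM) were low and were highest in other libraries. Cftr was at 0 in both controls and at 0.104 and 0.265 CPM in the knockout libraries. The ductal sum was thus mainly Krt7 and Spp1. The libraries that stood apart for Adcy9, Adcy3, Pde2a and Pde1a (control replicate 2) and for Pde1c, Prkar2b, Creb1 and Fos (knockout replicate 2) were these same libraries, and the part of carried-over cells in those values was not tested. The 10 macrophage markers summed to 107 and 90.3 CPM in the controls and 76.5 and 65.4 CPM in the knockout libraries, without overlap. The summed endothelial markers (461 and 478 against 399 and 456 CPM) and stellate markers (207 and 240 against 158 and 203 CPM) were also lower in both knockout libraries. In both sums knockout replicate 2 lay just under the lower control. Most of the stellate sum was Rgs5, at 168 and 184 CPM in the controls and 124 and 165 CPM in the knockout libraries. Of the tested macrophage, endothelial and stellate markers, 7 of 10 (70.0%), 5 of 7 (71.4%) and 4 of 7 (57.1%) were lower without overlap. Over all genes that share was 15.0%. The fold change was above 0 in 0 of 10, 1 of 7 (Kdr) and 2 of 7 (Acta2 and Col1a2), and Acta2 was higher without overlap. An unadjusted p under 0.05 (edgeR) was found in 5 of 10, 0 of 7 and 1 of 7, against 3.51% of all genes. None was called, and the part of these cell types in the values of the cAMP genes was not tested. The beta cell markers summed to 18952 and 16397 CPM in the controls and 15362 and 20695 CPM in the knockout libraries, with overlap. No marker list held a gene at 0 in all libraries. In whole islets, fewer cells of a type and less RNA per cell cannot be told apart.

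**Figure D5:**
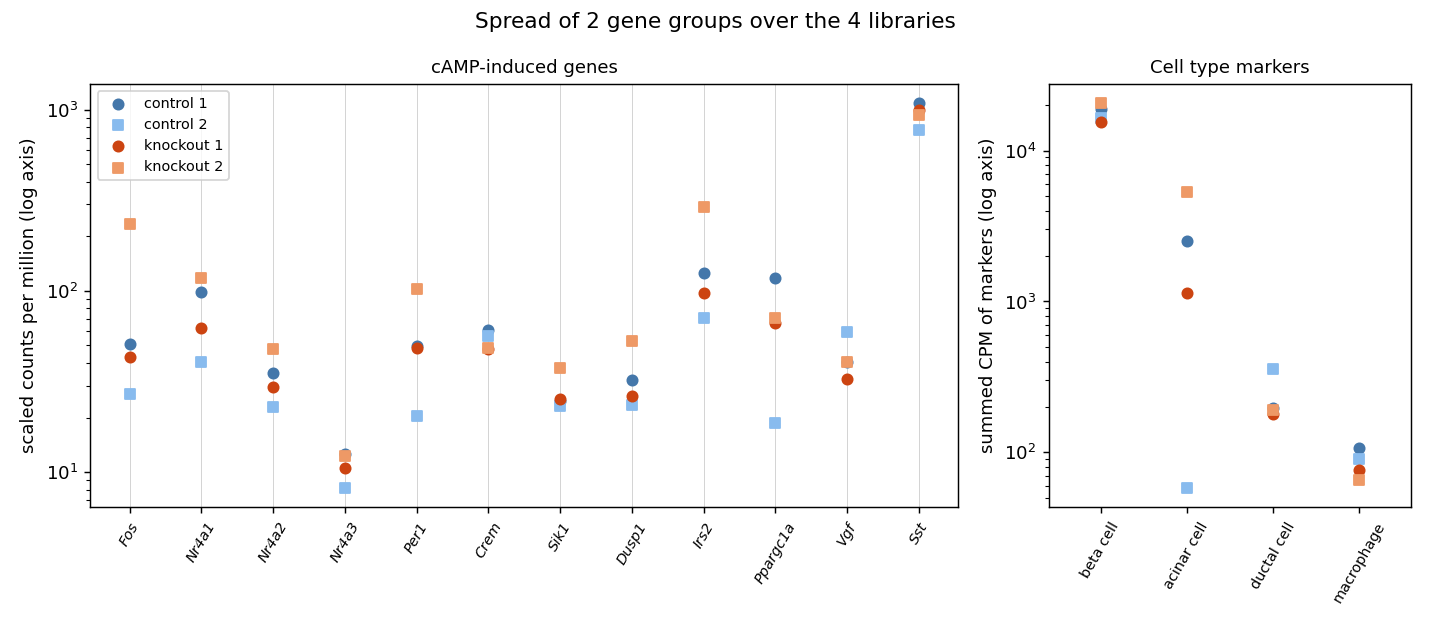
Left, level of the 12 cAMP-induced genes in CPM (log axis) in each of the 4 libraries. Right, summed CPM of beta cell, acinar, ductal and macrophage markers; control replicate 2 has the lowest acinar sum (58.2) and knockout replicate 2 the highest (5334).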

How the data were processed

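Raw counts per Ensembl gene were deposited by the authors for 4 islet libraries. Per the labels' protocols, RNA was kept in Trizol, purified on columns and made into libraries with a directional kit. Per the submitters' processing notes, HISAT2, featureCounts and GRCm39 were used; no source used here gives the annotation release, strand use or multi-mapping settings. Names and exon lengths came from GENCODE M21 on GRCm38, which matched 52403 of 52636 identifiers. Its exons were also compared with each other for overlaps between genes; no gene coordinates of it are given, since the builds differ. Promoter sequences came from RefSeq on GRCm38.p6.

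Counts were analysed in edgeR 4.0.16 (R 4.3.3, limma 3.58.1): filterByExpr with a minimum count of 10, TMM scaling, the robust quasi-likelihood F test without covariates, two-sided, and Benjamini-Hochberg adjustment over 16924 genes, called under 0.05. DESeq2 1.42.0 and limma-voom were alternatives. The fit was tested on simulated data of 16550 genes, with 50 genes changed at each size. It called 8% of 1.5-fold, 40% of 2-fold, 84% of 3-fold and 92% of 4-fold changes. Of its 136 calls, 24 were false, a larger share than the threshold of 0.05 aims at. The shares found were not split by level. An absent call therefore does not show that a gene was unchanged. CPM uses scaled totals; levels between genes are CPM per kilobase of all exon bases of a gene. Counting precision covers counting error only. P-values measure the spread between these libraries, which may be technical. Libraries differed beyond sampling noise in every pair (chi-square per degree of freedom 7.08 to 20.0), so each counted as 1 sample.

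The members, lists and tests were chosen with earlier results of these data known. Genes given in every library were those with the 8 smallest unadjusted p-values, the highest level per kilobase in each role, up to 3 genes of smallest p in other lists, and Gnas, Glp1r, Gipr, Gcgr, Crem, Ins2, Gcg and Sst. The values of Adcy8, Prkar2a, Pde1a, Fos, the named ductal, endothelial and stellate markers and the exon overlaps were added after the data were seen. Alternatives covered scaling, filter, tool, replicate block, exon length and each library left out; the crossed block, the cAMP-induced list's median and the named pathway genes' fold changes were added after seeing the data. A gene of the pathway list that the naming rule covers is not reported here.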

Additional observations from a re-analysis of the deposited data

How the results depend on the processing

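None of the 34 genes was called under any of the 10 alternatives. The number at unadjusted p under 0.05, main value 1, was 2 without the low-count filter, 0 with DESeq2, limma-voom or the replicate block, and 0 to 5 when a library was left out (5 without control replicate 1, where 8.01% of all genes had such a p). Over all genes, calls higher (main 0) were 15 without the filter, and calls lower (main 1) were 47 without the filter and 6 with DESeq2. Leaving out a library gave 0 to 33 higher and 1 to 15 lower, the most in each case without control replicate 1; the lone library of a group is then assumed to vary like the others. Same-numbered libraries did not deviate together (correlation -0.300), so the replicate numbers were not used for pairing. With the replicate block 1 gene was called higher and 5 lower, and with the crossed replicate block, added after seeing the data, 1 was called higher and 1 lower; no member was called in either.

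With a library left out, the members' median ran from -0.0601 to 0.0054, the pathway list's from -0.0451 to 0.0651 (0.0503 without the filter) and the cAMP-induced list's from 0.0012 to 0.7498, with 0 to 1 pathway genes called. Genes not overlapping then counted 7 to 13 higher and 10 to 14 lower, since 1 library stands for a group; over all genes that share was 61.7 to 69.3%. Log2 fold changes took both signs over these fits for Pde2a (-1.13 to 0.27), Adcy3 (-0.67 to 0.30), Pde1c (-0.77 to 0.12), Pde4b (-0.25 to 0.23), Pde7a (-0.21 to 0.0483), Pde3b (-0.12 to 0.14), Pde5a (-0.19 to 0.20), Pde10a (-0.29 to 0.55), Prkacb (-0.0728 to 0.27), Prkar1a (-0.0373 to 0.20), Gnas (-0.14 to 0.0706), Glp1r (-0.0876 to 0.0546) and Gcgr (-0.28 to 0.0227). Pde4b was also -0.0184 with limma-voom, -0.0136 with the replicate block and -0.0137 with the crossed block. For these reversals the cause was not tested.

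With the longest transcript as the length, the control mean summed level in CPM per kilobase was 211 for phosphodiesterases (149 with all exons), 511 for PKA (347), 51.4 for Epac (32.2) and 11.9 for Creb1 (7.21), and the shares of Pde5a and Prkar1a were 42.2% and 38.3%. Shorter lengths give higher values by construction. Standard errors were widest, up to 0.66, among the 12 genes under 5 CPM; depth and the spread between libraries were not separated.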
